A study of Mus musculus with 23 samples.

Results

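The pancreas secretes a small set of fat-digesting proteins, and their transcripts were followed here through recovery from pancreatitis. The set held 6 genes, chosen by name among the 18512 gene symbols of the count files: *Pnlip*, *Clps*, *Pnliprp1*, *Pnliprp2*, *Cel* and *Pla2g1b*. All 6 had enough counts in the libraries to be tested. RNA came from the head of the pancreas of C57BL/6 mice aged 6 to 8 weeks, of both sexes, in groups of 8 non-injured mice (baseline), 8 mice sampled on day 7 and 7 sampled on day 14 post-injury. Injury was caused by caerulein, a cholecystokinin analog that overstimulates acinar cells, given intraperitoneally as 8 injections of 50 µg/kg on each of 2 days. Baseline and day 7 each had 4 females and 4 males, and day 14 had 3 females and 4 males. Whole tissue was sequenced, so fewer acinar cells and less RNA per acinar cell cannot be told apart in any value below. Total counts per mouse ran from 7059890 to 9567446.

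Acinar cells make these proteins, pack them into zymogen granules and release them into the duodenum after a fatty meal. Pancreatic triglyceride lipase, encoded by *Pnlip*, cleaves dietary triglycerides, and colipase, encoded by *Clps*, is the cofactor that anchors it to the fat droplet in the presence of bile salts. The lipase-related proteins of *Pnliprp1* and *Pnliprp2* belong to the same family. *Pnliprp2* encodes a lipase that also cleaves phospholipids and galactolipids, whereas *Pnliprp1* encodes a protein with little or no known triglyceride lipase activity. *Cel* encodes the bile salt-dependent carboxyl ester lipase, which cleaves cholesteryl and retinyl esters, and *Pla2g1b* encodes a secreted phospholipase A2 that is released as a proenzyme.

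The 3 genes of the lipase family lie side by side on chromosome 19 of GRCm38, all on the plus strand, with no other protein-coding gene of GENCODE vM21 between them. *Pnlip* spans chr19:58652498-58681788, *Pnliprp1* chr19:58728887-58744169 and *Pnliprp2* chr19:58759719-58777534. *Cel* lies on the minus strand at chr2:28555795-28563403, *Clps* on the minus strand at chr17:28558149-28560766 and *Pla2g1b* on the plus strand at chr5:115466262-115474722. *Cel* overlaps an antisense gene, Gm13381, that is no symbol of the count files, and the *Clps* locus also holds the microRNA gene Mir6969. The library kit was stranded, but whether the counting used the strand was not given in the sources used here. Reads of the 6 genes could be told from each other and from those of other genes: in the longest coding transcript of each, 100% of the windows of 75 bases, the read length, occurred in no other gene's transcripts. 

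Promoter sequences were available from RefSeq (GRCm38.p6) for 5 of the 6 genes, in windows of 250 bases before to 50 bases after the transcription start. The RefSeq start of *Pnlip* lies inside the GENCODE span of the gene given above. Acinar enzyme genes are classic targets of PTF1, a factor that binds an E-box next to a TC-box, and of the nuclear receptor NR5A2. The 150 bases before the start are shown for *Pnlip* and *Cel*, the 2 most abundant of the 6 transcripts, because these windows differ in the motifs they hold. They cover chr19:58670215-58670364 on the plus strand and chr2:28563404-28563553 on the minus strand, and capitals mark a TC-box (TTTCCC) on either strand, an E-box (CANNTG) within 30 bases of it, and an NR5A2 motif (AAGGTCA) on either strand.

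Pnlip: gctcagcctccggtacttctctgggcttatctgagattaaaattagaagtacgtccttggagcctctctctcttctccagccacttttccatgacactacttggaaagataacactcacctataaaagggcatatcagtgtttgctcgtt

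Cel: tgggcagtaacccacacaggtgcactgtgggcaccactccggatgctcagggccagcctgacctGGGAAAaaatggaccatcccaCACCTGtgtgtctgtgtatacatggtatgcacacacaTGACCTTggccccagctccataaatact

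The *Cel* window held all 3 motifs, with the TC-box beginning 86 bases, the neighbouring E-box 65 bases and the NR5A2 motif 28 bases before the start. An E-box within 30 bases of a TC-box occurred in 6.51% of 32851 promoter windows of the same length, and the NR5A2 motif in 4.72%. The other 4 windows held neither a TC-box, present in 25.2% of all windows, nor the NR5A2 motif. *Cel* had 5 E-boxes and *Pnliprp1* and *Pnliprp2* had 2 each, a motif found in 72.3% of all windows, and *Pnlip* and *Pla2g1b* had none. These are matches of letters only, and nothing about the binding of either factor was measured.

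At baseline *Pnlip* was the most abundant transcript in each of the 8 libraries, and the 6 genes together took 20.1% ± 0.657 (SD, n = 8) of all counts. *Cel* ranked between 2nd and 4th, *Pnliprp1* 9th or 10th, *Clps* 18th to 21st and *Pnliprp2* 24th to 26th by raw count, whereas *Pla2g1b* ranked 48th to 57th. To compare genes, levels were expressed as CPM, the counts of a gene relative to the size of its library, scaled with the TMM factors of edgeR, per kilobase of the exons annotated for each gene. On that scale the order was *Pnlip* at 45983 ± 6265, *Cel* at 37354 ± 3968, *Clps* at 21371 ± 2936, *Pnliprp1* at 16653.5 ± 1224, *Pnliprp2* at 3358 ± 455 and *Pla2g1b* at 928 ± 76.8 (mean ± SD, n = 8). The ranges of *Pnlip* and *Cel* over the baseline mice overlapped (37058 to 58333 against 30634 to 42485), but within each of the 8 baseline mice *Pnlip* was the higher, with *Cel* at 0.695 to 0.893 of it. *Clps* (18761 to 28063), *Pnliprp1* (14663 to 18063), *Pnliprp2* (2727 to 3913) and *Pla2g1b* (830.2 to 1037) did not overlap with each other. With coding length in place of all exons the order of the means stayed the same, although *Cel* (35867.5 to 49743) and *Clps* (33814 to 50580) then overlapped, with *Cel* higher in 7 of 8 mice. Day 7 and day 14 had the same order of means. At day 7 the mean level of *Cel* per kilobase of exon was 0.995 of that of *Pnlip*, against 0.812 at baseline and 0.843 at day 14, and *Pnlip* was the higher in 4 of 8 day 7 mice and in 7 of 7 day 14 mice.

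Day 7 was compared with baseline, to see which of these transcripts differed from the uninjured level, by the quasi-likelihood test of edgeR, fitted on the 23 mice together and adjusted for sex. All 6 transcripts were lower at day 7 with an adjusted p of at most 0.05, a mark that 9.70% of the 12195 tested genes passed in this direction. *Pnlip* and *Clps*, the lipase and its cofactor, fell the most, to 54.5% and 60.4% of baseline. They were the 2 members that also passed the fold change of 1.5 used to define differentially expressed genes (DEGs), which 1.31% of tested genes did as lower. The median log2 fold change of the 6 was -0.57, beside 0.02 over all tested genes.

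*Pnlip* ran from 81342 through a median of 98507 to 128042 TMM-scaled CPM at baseline and from 43136.5 through 55860 to 65270.3 at day 7. Every day 7 mouse was below every baseline mouse. Its log2 fold change was -0.88 (SE 0.0822, adjusted p = 4.51e-08), which placed it 35th from the lowest among the 12195 tested genes. Here and for the members below, how many of all tested genes separated day 7 from baseline without overlap was not counted.

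*Clps* had a lowest, median and highest value of 11463, 12602 and 17146.5 CPM at baseline and of 5573, 7913 and 10132 CPM at day 7. The groups again did not overlap, and the highest baseline value stood apart from the rest. Its log2 fold change was -0.73 (SE 0.0989, adjusted p = 9.09e-06).

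Among the lipase-related genes, *Pnliprp1* went from 32597, 37901 and 40153 CPM at baseline to 19487, 27187 and 31695.5 CPM at day 7 (lowest, median and highest). *Pnliprp2* went from 4286, 5119.52 and 6152 CPM to 2912, 4113 and 5014 CPM. The *Pnliprp1* groups did not overlap, whereas 4 of the 8 day 7 mice lay within the baseline range of *Pnliprp2*. Their log2 fold changes were the smallest of the 6, at -0.46 for *Pnliprp1* (SE 0.0825, adjusted p = 3.37e-04) and -0.36 for *Pnliprp2* (SE 0.0915, adjusted p = 0.00624).

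*Cel* ran from 64454 through 79742 to 89388 CPM at baseline and from 39163 through 52766 to 62429 CPM at day 7. *Pla2g1b* ran from 592 through 644 to 739.7 CPM at baseline and from 349.7 through 436 to 587 CPM at day 7. Neither gene's groups overlapped, though for *Pla2g1b* the highest day 7 mouse came close to the lowest baseline mouse. The log2 fold change was -0.58 for *Cel* (SE 0.0796) and -0.56 for *Pla2g1b* (SE 0.0766), both with an adjusted p of 1.06e-05 in edgeR. *Cel*, at 66.9% of baseline, lay just short of the fold change of 1.5 that defines DEGs and passed it with DESeq2, with a log2 fold change of -0.59. *Cel* also passed in 8 of the 23 edgeR fits that left out 1 mouse (baseline mice 2, 4 and 5, day 7 mice 9, 11, 12, 13 and 16). Without day 7 mouse 11, *Pla2g1b* passed as well (-0.62), and 4 of the 6 were DEGs.

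**Figure D1:**
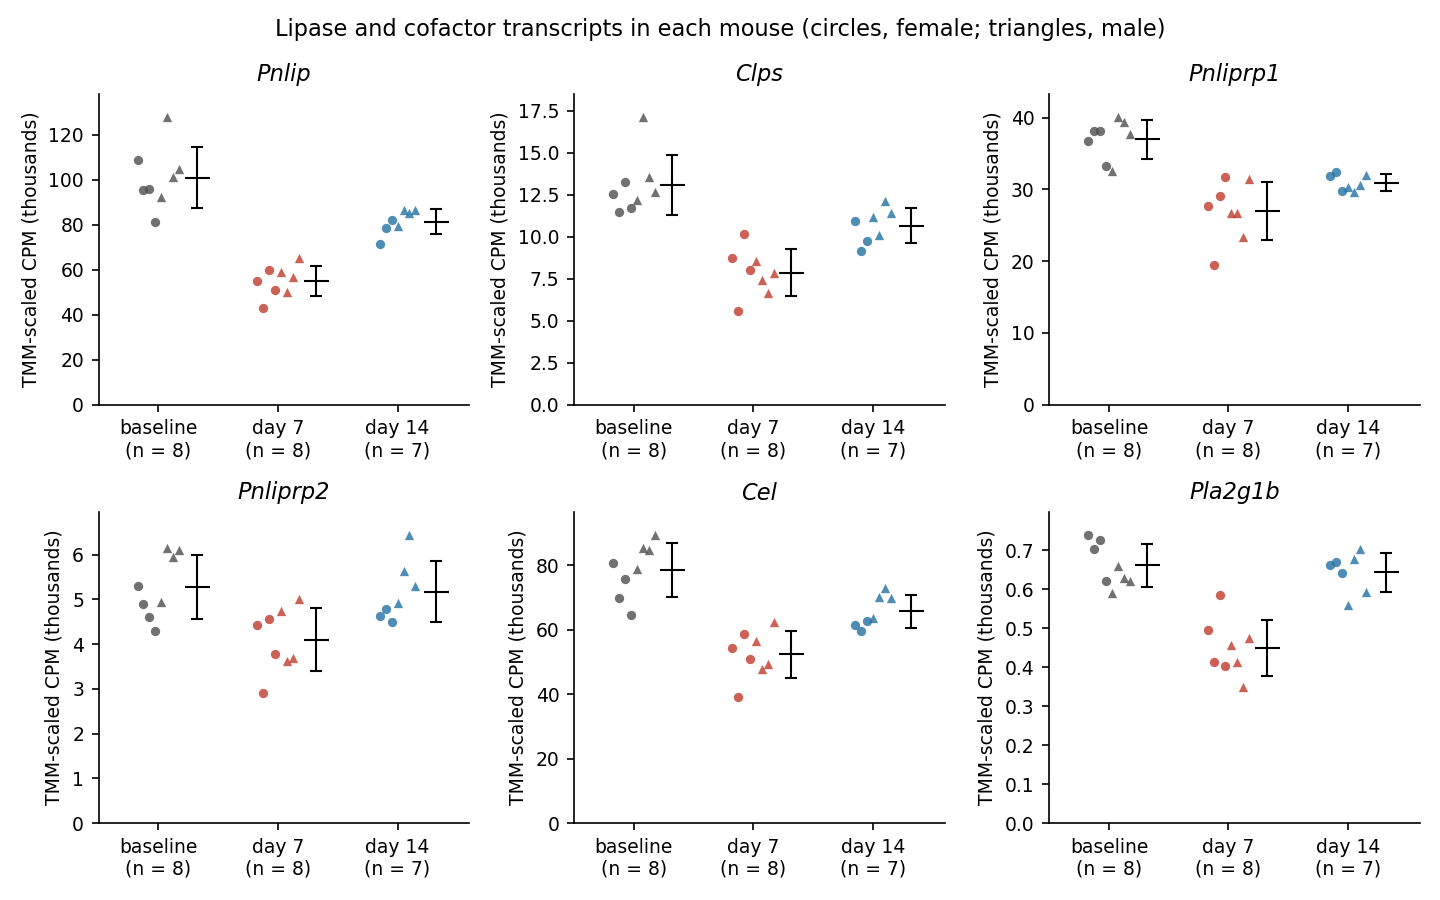
TMM-scaled CPM, divided by 1000, of each gene in each mouse at baseline, day 7 and day 14 (circles, females; triangles, males; bars, mean ± SD). On this scale the 8 day 7 mice lie below all 8 baseline mice for each gene except *Pnliprp2*, where 4 do. How many of all tested genes separate the groups in this way was not counted. As shares of all counts the day 7 mice lie wholly below baseline only for *Pnlip*.

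Acinar enzymes fill most of these libraries, and the size of these changes differed with the scale on which libraries were compared. Secreted acinar genes, a set of 32 that includes the 6 described here, took 67.8% ± 1.58 (baseline, n = 8), 59.3% ± 2.49 (day 7, n = 8) and 63.9% ± 0.873 (day 14, n = 7) of all counts (mean ± SD). TMM factors ranged from 0.770 to 1.003 in baseline mice, 1.05 to 1.40 in day 7 mice and 0.934 to 1.03 in day 14 mice. Every day 7 factor was thus above every baseline factor. When libraries were scaled by total counts alone, the median of all tested genes moved to 0.47 at day 7 and 0.22 at day 14 on the log2 scale. On that scale the day 7 log2 fold change was -0.42 for *Pnlip* (adjusted p = 2.68e-08), -0.29 for *Clps* (6.06e-04), -0.14 for *Cel* (0.00362), -0.11 for *Pla2g1b* (0.0590), -0.01 for *Pnliprp1* (0.848) and 0.08 for *Pnliprp2* (0.149), all by edgeR. None of the 6 then passed the fold threshold, and the direction of *Pnliprp2* turned. As shares of all counts, day 7 lay wholly below baseline for *Pnlip* alone. Day 7 mice below the baseline range numbered 6 of 8 for *Clps*, 4 for *Pla2g1b*, 3 for *Cel*, 2 for *Pnliprp1* and 0 for *Pnliprp2*. Above that range lay 1 mouse for *Pnliprp1* and 3 for *Pnliprp2*. How many of all tested genes separate the groups on either scale was not counted.

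Measured against the median of all tested genes under that same scaling, the 6 had log2 differences that ran from -0.90 for *Pnlip* to -0.39 for *Pnliprp2*, all below it. With total counts that left out the 32 secreted genes, all 6 were lower at day 7 with an adjusted p of at most 0.05, and *Pnlip* (-0.76) and *Clps* (-0.61) were again past the fold threshold. *Pnlip* had the lowest log2 fold change of the 6 and *Pnliprp2* the highest under each of these 3 scalings. A scaling factor moves all genes of a library alike. Neither this order nor the distance from the median gene is therefore a separate check.

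**Figure D2:**
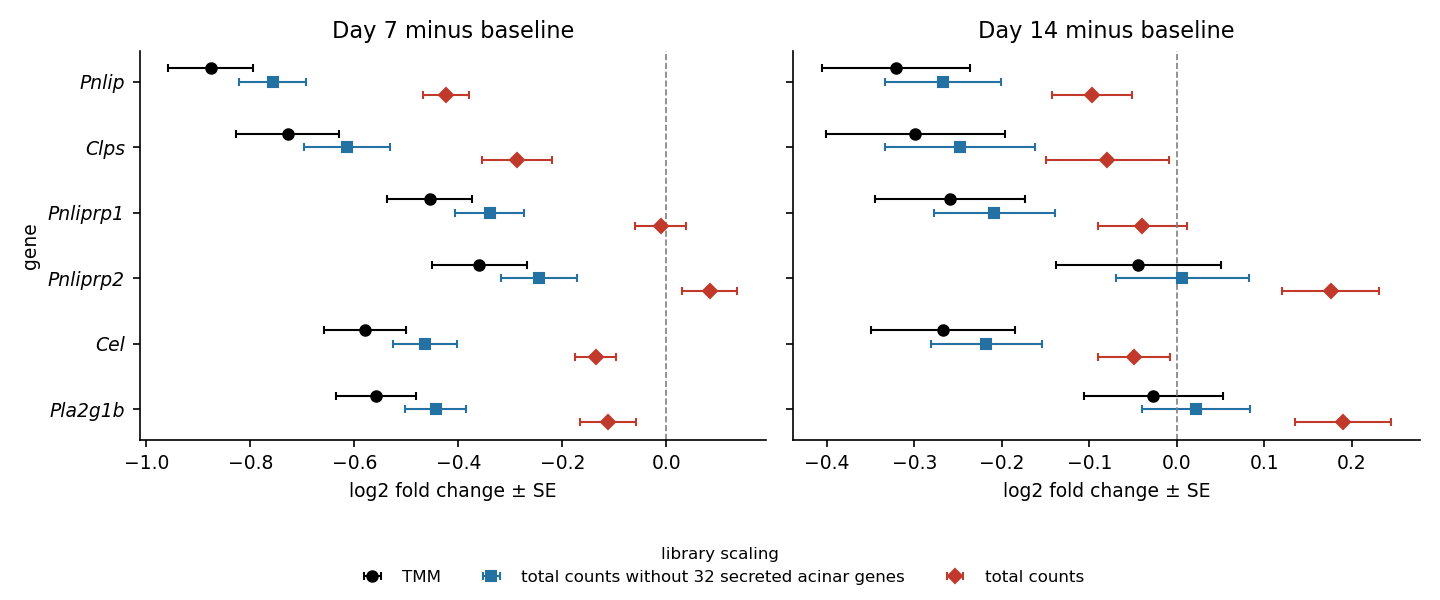
Log2 fold change ± SE of each gene at day 7 (left) and day 14 (right) against baseline, with libraries scaled by TMM (circles), by total counts without 32 secreted acinar genes (squares) or by total counts (diamonds). At day 7 the values shift to the right together under total counts. They go from -0.88 to -0.42 for *Pnlip* and from -0.36 to 0.08 for *Pnliprp2*. The order of these 2 genes stays, because a change of scaling moves all genes nearly alike.

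A ratio of counts within 1 mouse needs no scaling between libraries, and it showed that the 6 transcripts did not fall equally. Relative to *Pnlip*, the lipase-related genes and *Cel* were higher in every day 7 mouse than in any baseline mouse, and *Pla2g1b* was higher on average with overlap. A difference in the ratio of *Clps* to *Pnlip* was not shown, although 5 of 8 day 7 mice lay above the baseline range. Exact two-sided permutation tests over mice were run on the log2 ratios and adjusted over 15 tests (5 genes, 3 pairs of groups). The smallest p these tests allow is 1.55e-04, before adjustment.

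For *Pnliprp2* the lowest, median and highest counts per 1000 *Pnlip* counts were 48.0, 52.0 and 58.8 in baseline mice, 65.0, 75.3 and 80.9 in day 7 mice and 54.8, 61.9 and 75.6 in day 14 mice. No day 7 mouse overlapped with baseline, and 6 of 7 day 14 mice lay above the whole baseline range. The log2 ratio rose by 0.50 from baseline to day 7 (exact permutation adjusted p = 7.77e-04) and was still 0.28 above baseline at day 14 (exact permutation adjusted p = 0.00389).

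For *Pnliprp1* these values were 313.6, 375 and 409.4 in baseline mice, 409.7, 484 and 619.4 in day 7 mice and 342.3, 369 and 447.1 in day 14 mice. The lowest day 7 mouse was only just above the highest baseline mouse, and 2 of 7 day 14 mice lay above the baseline range. The difference in log2 ratio was 0.41 between day 7 and baseline (exact permutation adjusted p = 7.77e-04), -0.36 between day 14 and day 7 (adjusted p = 0.00326) and 0.05 between day 14 and baseline (adjusted p = 0.595).

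For *Cel* they were 666, 791 and 856 in baseline mice, 870.3, 958.5 and 998 in day 7 mice and 761, 805 and 861 in day 14 mice. The counts of *Cel* thus came close to those of *Pnlip* at day 7, without passing them in any mouse. Its log2 ratio was higher by 0.29 at day 7 than at baseline (exact permutation adjusted p = 7.77e-04), lower by 0.24 at day 14 than at day 7, given as -0.24 (adjusted p = 0.00117), and 0.05 above baseline at day 14 (adjusted p = 0.484).

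For *Pla2g1b* they were 5.15, 6.61 and 7.66 in baseline mice, 6.15, 8.08 and 9.83 in day 7 mice and 6.85, 7.84 and 9.31 in day 14 mice. The groups overlapped, with 6 of 8 day 7 mice and 5 of 7 day 14 mice above the baseline range. The log2 ratio was 0.31 higher at day 7 and 0.26 higher at day 14 than at baseline (exact permutation adjusted p = 0.0212 for both). For *Clps* they were 115.6, 132.8 and 144.0 in baseline mice, 117.2, 146.7 and 169.7 in day 7 mice and 116.5, 131.8 and 153.1 in day 14 mice, with 5 of 8 day 7 mice above the baseline range. Its log2 ratio differed by 0.13 (day 7 against baseline), 0.01 (day 14 against baseline) and -0.12 (day 14 against day 7), with exact permutation adjusted p-values of 0.178, 0.839 and 0.300.

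**Figure D3:**
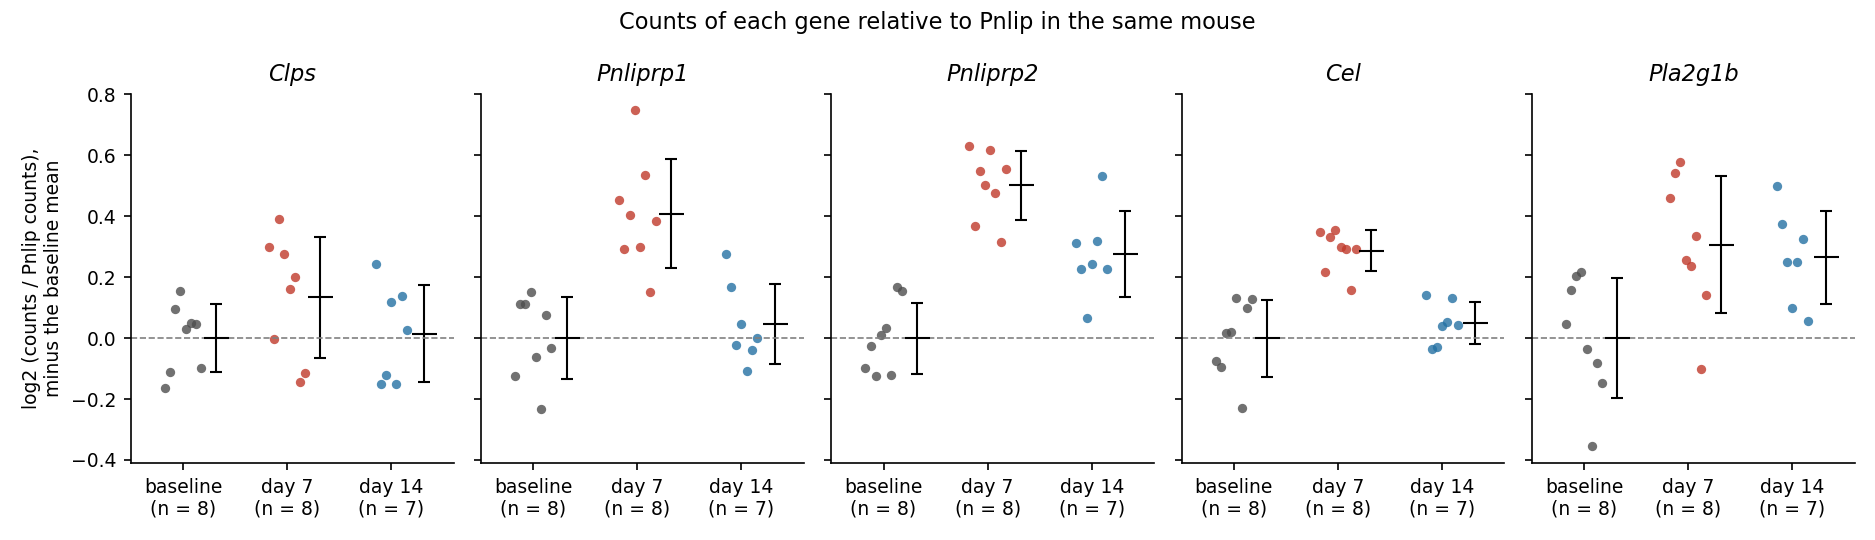
Log2 ratio of the counts of each gene to those of *Pnlip* in the same mouse, minus the baseline mean (points, mice; bars, mean ± SD; n = 8, 8 and 7). The day 7 mice lie above all baseline mice for *Pnliprp1*, *Pnliprp2* and *Cel*, with mean differences of 0.41, 0.50 and 0.29, and overlap with them for *Clps* and *Pla2g1b*.

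Together the 6 genes took 19.1% to 21.4% of all counts in baseline mice, 15.5% to 18.2% in day 7 mice and 18.1% to 19.8% in day 14 mice, with means of 20.1% ± 0.657, 17.1% ± 0.805 and 19.3% ± 0.585 (SD, n = 8, 8 and 7). These shares are described without a test. *Pnlip* made up most of the difference: its own share of all counts was 8.60% ± 0.563 in the baseline group, 6.42% ± 0.395 in the day 7 group and 8.07% ± 0.448 in the day 14 group. The share of *Pnliprp1* was 3.17%, 3.15% and 3.07%, and that of *Pnliprp2* 0.450%, 0.476% and 0.512% at the same times. Among the counts of the 32 secreted acinar genes, the 6 held 29.7% ± 0.795, 28.8% ± 0.379 and 30.2% ± 0.581 in these groups. Within that pool *Pnlip* had 12.7%, 10.8% and 12.6%, and *Pnliprp1* had 4.68%, 5.30% and 4.81%, as group means.

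**Figure D4:**
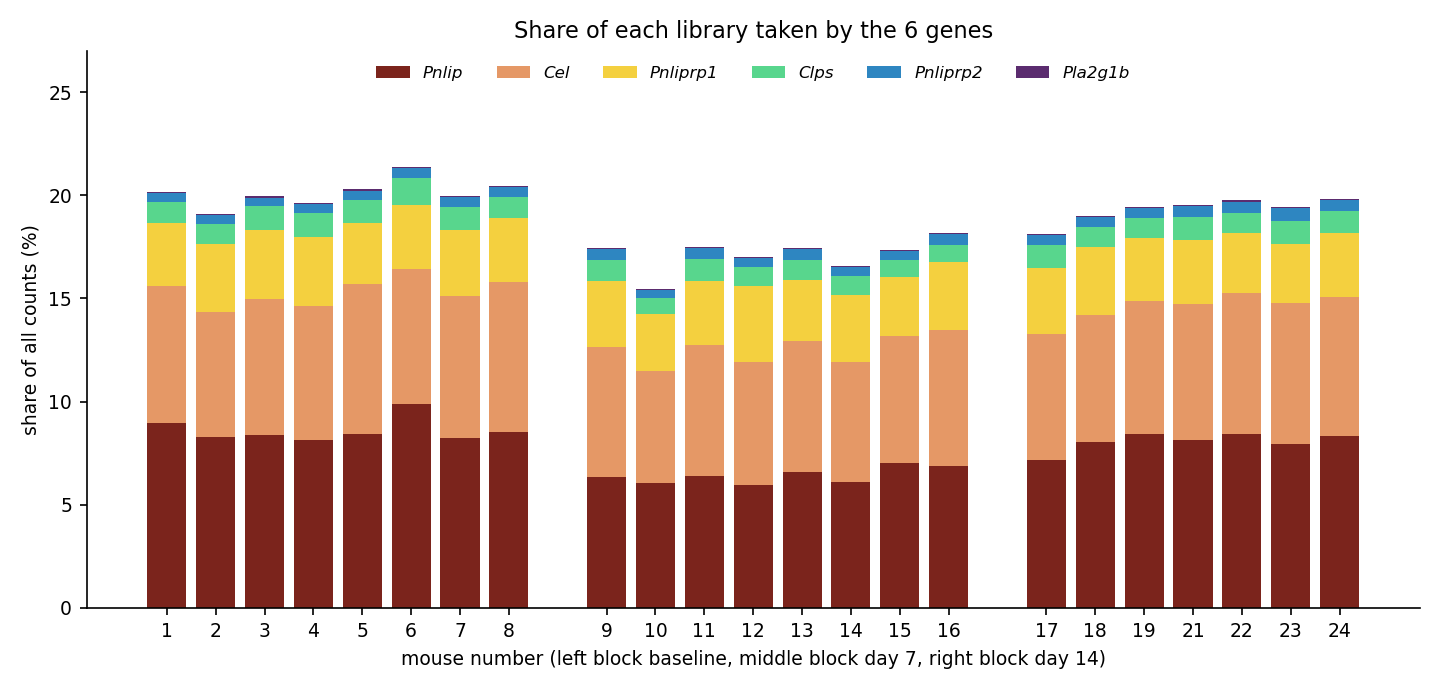
Share of all counts, in percent, taken by each of the 6 genes in each of the 23 mice, stacked, with baseline, day 7 and day 14 in the left, middle and right block. The stacks reach 19.1% to 21.4% in baseline mice, 15.5% to 18.2% in day 7 mice and 18.1% to 19.8% in day 14 mice, and the lowest segment, *Pnlip*, changes most.

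By day 14 the levels were closer to baseline. None of the 6 was a DEG against baseline in edgeR, where 0.0902% of tested genes were called lower, and DESeq2 called 0. An unadjusted edgeR p under 0.05 was met as lower by 4 of the 6, beside 794 of all 12195 tested genes. *Pnlip* alone had an adjusted p of at most 0.05 in this edgeR fit, a mark that 0.525% of tested genes passed as lower. That count of 1 depended on the fit: it was 3 with DESeq2 (*Pnlip*, *Pnliprp1* and *Cel*), 4 in edgeR with only the 2 groups compared (also *Clps*), and 0 without the sex covariate or with all genes of at least 1 count in any mouse. The shares of all genes under these other fits were not counted. *Pnlip* ran from 71263 through 81989 to 86676 CPM at day 14, with 3 of 7 mice below the baseline range. Its log2 fold change against baseline was -0.32 (SE 0.0849, adjusted p = 0.0494). That call was close to the threshold, and it was lost in 18 of 23 fits that left out 1 mouse, all but those without baseline mouse 4 or 5 or day 7 mouse 10, 11 or 16, with an adjusted p of up to 0.125.

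The other members at day 14 were given by log2 fold changes against baseline of -0.30 for *Clps* (SE 0.102, adjusted p = 0.155), -0.27 for *Cel* (SE 0.0824, adjusted p = 0.104) and -0.26 for *Pnliprp1* (SE 0.0855, adjusted p = 0.139). All 7 day 14 mice lay below the baseline range of *Pnliprp1*, at 29586 to 32459 TMM-scaled CPM. By share of all counts, 2 of 7 did. The adjusted p of *Pnliprp1*, over the threshold in this fit, was 0.0375 with DESeq2 and 0.0240 in edgeR with only the 2 groups compared. *Pnliprp2* (-0.04, SE 0.0947) and *Pla2g1b* (-0.03, SE 0.0792) had the smallest differences. With total count scaling these last 2 turned to 0.18 (adjusted p = 0.0236) and 0.19 (adjusted p = 0.0154), beside the 0.22 of the median gene.

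Between the post-injury time points, *Pnlip*, *Clps* and *Pla2g1b* were higher at day 14 than at day 7 with an adjusted p of at most 0.05 in edgeR, as were 1.01% of tested genes. DESeq2 put 5 of the 6 under that threshold, adding *Cel* (adjusted p = 0.00236) and *Pnliprp2* (0.0292). The share of all genes that DESeq2 put under it was not counted. *Cel* was also added in edgeR when genes needed 10 counts in every mouse (0.0361) and when libraries were scaled without the secreted acinar genes (0.0414). None of the 6 reached a fold change of 1.5 there, which 0.205% of tested genes did, and DESeq2 also called 0 at that fold. All 6 had an unadjusted edgeR p under 0.05 as higher, beside 966 of all 12195 tested genes. *Pnlip* rose by a log2 fold change of 0.56 (SE 0.0845, adjusted p = 3.57e-04), and each day 14 mouse was above each day 7 mouse. *Pla2g1b*, the phospholipase, was 560.7 to 703 CPM at day 14 and rose by 0.53 (SE 0.0791, adjusted p = 2.74e-04). *Clps* was 9128 to 12141 CPM at day 14 and rose by 0.43 (SE 0.102, adjusted p = 0.0274). This call was lost in 5 of 23 fits without 1 mouse (day 7 mice 14 and 15, day 14 mice 17, 23 and 24; adjusted p of up to 0.0732), while those of *Pnlip* and *Pla2g1b* held in all 23.

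For the other 3 genes the log2 difference between day 14 and day 7 was 0.31 for *Cel* (adjusted p = 0.0528), 0.32 for *Pnliprp2* (adjusted p = 0.0882) and 0.20 for *Pnliprp1* (adjusted p = 0.286, edgeR). *Cel* came under an adjusted p of 0.05 in 5 of 23 fits without 1 mouse (baseline mouse 4, day 7 mice 9, 11 and 16, day 14 mouse 21; down to 0.0207) and *Pnliprp2* in 1 (day 7 mouse 11; 0.0486). With total count scaling the value of *Pnliprp1* was -0.03.

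The sexes were compared because the study sequenced both. None of the 6 was called between males and females over the time points in edgeR, where 0.271% of 12933 tested genes were, and DESeq2 called 0. While the share of all genes at an unadjusted edgeR p under 0.05 was not counted, 2 of the 6 had one. These were *Pnliprp2*, with a log2 difference of 0.22 (SE 0.0811, adjusted p = 0.337), and *Cel*, with 0.16 (SE 0.0719, adjusted p = 0.514), both higher in males. The change since baseline was not shown to differ between the sexes for any of the 6, with 0 interactions at an adjusted p of at most 0.05 in edgeR and in DESeq2 and 0 at an unadjusted p under 0.05. Over all genes that interaction was called for 0.00773% at day 7 and 0% at day 14. *Clps* had the largest estimate of a sex difference in the day 7 change, with log2 fold changes of -0.60 in females and -0.87 in males, an interaction of -0.27 (SE 0.201, adjusted p = 0.945). It was -0.15 without baseline mouse 6 or day 7 mouse 11 and -0.43 without day 7 mouse 10. *Pnlip* had -0.87 in females and -0.89 in males.

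A list of other secreted acinar enzymes was examined next to the fat-digesting set. It held elastases, carboxypeptidases and others, but of the trypsinogens only *Prss2* and the trypsinogen-like 2210010C04Rik. Of the 17 listed enzymes measured, 9 were DEGs lower at day 7 and 1 was a DEG higher. Over all tested genes, 1.31% were called lower and 3.82% higher. The median log2 fold change of the 17 was -0.62, close to the -0.57 of the 6 fat-digesting genes. *Prss2*, a trypsinogen (-0.94, adjusted p = 4.44e-07), *Cpa1*, carboxypeptidase A1 (-0.87, adjusted p = 1.83e-07), and *Rnase1*, pancreatic ribonuclease (-0.83, adjusted p = 9.29e-07), fell the most among the 17. *Cpb1*, the most abundant of the list, had -0.53 (adjusted p = 1.84e-04) and missed the fold threshold. The gene called higher was *Cela3a* (0.67, adjusted p = 0.00333), named because it was the exception within this list. Whether its reads are shared with other elastase genes was not tested. Other trypsinogen genes, such as *Prss1* and *Prss3*, were not in the list. The paper reports several trypsinogens among its top up-regulated genes after injury. The counts given for this list therefore do not describe the trypsinogens as a group.

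Other genes that handle fat were examined in a pair of lists, and no test compared these lists with the 6 genes. Of 31 genes of fat digestion and absorption other than the 6, 17 were tested and 0 were DEGs at day 7 in edgeR or DESeq2. Their median log2 fold change was -0.11, and 5 had an unadjusted edgeR p under 0.05. Over all 12195 tested genes, 1909 passed that mark as lower and 2016 as higher. The most abundant of the 17, *Abca1*, a cholesterol exporter, had 0.12 (adjusted p = 0.370). A list of lipases and phospholipases of other tissues and of the cell interior also held *Angptl4*, *Gpihbp1* and *Lmf1*, which encode no lipase. Of its 18 tested genes, 4 were DEGs higher at day 7 and 1 was a DEG lower. Over all tested genes, 3.82% were called higher and 1.31% lower. *Pla2g7*, which encodes the platelet-activating factor acetylhydrolase made by macrophages, rose by 1.36 (adjusted p = 0.00713). *Pla2g4a*, the cytosolic phospholipase A2 that releases arachidonic acid, rose by 1.34 (adjusted p = 5.50e-04), and *Pla1a*, a phosphatidylserine-specific phospholipase, rose by 1.11 (adjusted p = 4.10e-04). The gene that fell was *Dagla*, a diacylglycerol lipase (-0.59, adjusted p = 2.83e-04), named here after its value was seen. *Lpl*, lipoprotein lipase and the most abundant of this list, had 0.02 (adjusted p = 0.875).

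The genes whose pattern over the 23 mice was most like each member were found by the root-mean-square difference of mean-centred log2 CPM, given here as a description. For *Pnlip* the nearest tested gene was *Cpa1* (0.0858), followed by *Tpt1* (0.134) and *Cela3b* (0.136). For *Clps* they were 2210010C04Rik (0.115), a trypsinogen-like gene, *Ctrl* (0.131) and *Cpa1* (0.133). *Cel* was nearest to *Cela1* (0.0980), *Myo1d* (0.0987) and *Zg16* (0.110). The other 3 members had other neighbours: *Spint1*, *Homer2* and *Myo5c* for *Pnliprp1* (0.109 to 0.116), *Hsd17b13* and *Aes* for *Pnliprp2* (0.103 and 0.129), and *Gid4*, *Furin* and *Tbc1d16* for *Pla2g1b* (0.113 to 0.130). No member was among the 3 nearest genes of another. The closest pair of members, *Cel* and *Pnliprp2*, differed by 0.130, and the least alike, *Pnlip* and *Pnliprp2*, by 0.239. The spread between mice, as the SD of log2 CPM, was 0.185 to 0.261 over the 6 genes in the day 7 group, 0.109 to 0.197 in the baseline group and 0.0538 to 0.183 in the day 14 group. It was larger at day 7 than at either other time for each gene but *Pnlip*, which had 0.185 at day 7 and 0.191 at baseline. By the SD of shares of all counts, this did not hold for *Cel* or *Pnliprp2* either. The median SD of log2 CPM over all tested genes was 0.214 at day 7, 0.228 at baseline and 0.200 at day 14. The lowest SD of log2 CPM among the 6 genes, that of *Pnliprp1* at day 14, was matched or undercut by 0.820% of all tested genes.

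The labelled tissue was checked against marker lists. All 8 acinar markers were present in every mouse, and their summed CPM of unscaled counts was 154777 to 185308 in baseline mice, 133390 to 153539 in day 7 mice and 136651 to 157157 in day 14 mice. At day 7, 3 of the 8 were DEGs lower, led by *Cpa1*, *Cela3b* and *Ctrb1* (log2 fold changes of -0.87, -0.74 and -0.70). For this and the lists below, the day 7 shares over all tested genes were 1.31% called lower and 3.82% called higher. Markers of other cells moved with the time points. Summed fibroblast markers (9 genes) were 283 to 689 CPM in baseline mice, 712 to 1520.5 in day 7 mice and 555 to 829.8 in day 14 mice, and 8 of 8 tested were DEGs higher at day 7, led by *Lum* (1.41). Macrophage markers (10 genes) were 46.2 to 194 CPM, 145 to 436 and 90.9 to 185, and 8 of 10 were DEGs higher, led by *Ms4a7* (1.86). Islet markers (8 genes) were 130.0 to 457 CPM, 567 to 1454 and 405 to 864, with 5 of 8 DEGs higher, led by *G6pc2* (1.45). Duct markers (8 genes) were 86.0 to 119 CPM, 153 to 252 and 133 to 155, with 3 of 8 DEGs higher, led by *Car2* (1.84). The median of the duct list was 0.19, its most abundant gene was *Spp1* (0.72), and *Krt19* had -0.37 (adjusted p = 0.116, chosen after its value was seen). Adipocyte markers (10 genes, 7 tested) were 11.9 to 138 CPM, 14.996 to 467 and 17.9 to 189. Endothelial markers (6 genes) were 53.5 to 101 CPM, 57.3 to 137 and 73.9 to 105. Neither list had a DEG at day 7 in edgeR or DESeq2, with 0 and 4 genes at an unadjusted p under 0.05. By TMM fold change all 6 endothelial markers were lower at day 7 (median -0.33), with *Kdr* at -0.35 (edgeR adjusted p = 0.00874). All 7 tested adipocyte markers were higher (median 0.66). The sums of each list are of unscaled counts, while the fold changes used TMM. With total count scaling the median tested gene itself rose by 0.47 at day 7. Duodenum markers (9 genes), which would mark adjoining gut, summed to 1.83 to 10.03 CPM over the 23 mice, with *Apoa4* at 0 in every baseline and day 7 mouse and *Fabp2* at 0 in every baseline mouse. The 1 gene of that list with enough counts to test was *Pyy*, which islets also make, at 1.06 (edgeR adjusted p = 0.0667), and DESeq2 called it higher. The part of these other cells in the falls of the 6 lipase genes was not tested.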

How the data were processed

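RNA-seq of the head of the pancreas gave 1 library per mouse for 23 mice (8 baseline, 8 day 7, 7 day 14). Each deposited file gives raw counts for 18512 gene symbols. The authors depleted total RNA of ribosomal RNA, trimmed paired reads of 75 bases with Trim Galore and Cutadapt, aligned them to mm10 with STAR 2.5.2a and counted uniquely mapped fragments with featureCounts. Total counts of 7059890 to 9567446 per mouse set a floor of 3 counts at 3.14e-05% to 4.25e-05% of a library, for counting error only; the 6 genes were far above it.

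Testing used edgeR 4.0.16 in R 4.3.3 with limma 3.58.1: TMM scaling, filterByExpr, glmQLFit with robust estimation and two-sided glmQLFTest, with sex as a covariate (12195 genes). Sex and its interaction with time came from a fit with 6 groups of sex and time point (12933 genes). Adjusted p-values are Benjamini-Hochberg values over all genes tested. DEGs had to pass 0.05 on the adjusted p and also 1.5 in fold change, in either direction, whereas interactions had to pass 0.05 only. SEs restate the test, as the log2 fold change over the square root of F. Log2 CPM used a prior count of 2. Ratios used exact permutation tests in Python 3.11.15 (numpy 2.4.6, pandas 2.3.3). DESeq2 1.42.0, other scalings, filters and covariates, and leaving out each mouse were alternatives. The fits were tested on simulated data.

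The 6 genes were named in every comparison; from each other list, up to 3 DEGs with the largest day 7 fold change and the most abundant gene were named. The genes and lists were chosen with earlier results of these data known, and are not independent evidence. Each mouse is a separate animal. Mouse 20 was not analysed here. Of the genes most like each member, 1 is not reported here. Promoters came from RefSeq and gene models from GENCODE vM21; no protein sequences were used here.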

Additional observations from a re-analysis of the deposited data

Results flagged for a closer look

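Among 36 groups of values examined (each gene, ratio and summed share in each time group), 1 held a mouse far from the others by Dixon's criterion, which chance meets in about 1 in 20 groups. This was the TMM-scaled CPM of *Clps* at baseline, where male mouse 6 had 17146.5 and the other 7 mice ran from 11463 to 13521. The same mouse also had the highest *Pnlip* value of the baseline group, 128042 CPM, the lowest TMM factor of all libraries, 0.770, and the largest share of counts in the 6 genes, 21.4%. Without it the day 7 log2 fold change of *Clps* was -0.67 (edgeR adjusted p = 2.997e-05) in place of -0.73.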

How the results depend on the processing

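Day 7 DEGs among the 6 genes numbered 2, and 0 with total count scaling, 6 with no fold threshold and 2 to 4 without 1 mouse, the 4 being reached without day 7 mouse 11. For day 14 against baseline the count of 0 became 1 with no fold threshold and stayed at 0 without each mouse. For day 14 against day 7 the count of 0 became 3 with no fold threshold and 0 to 2 without 1 mouse (2 without day 7 mouse 11, 1 without day 7 mouse 16). Total count scaling reversed the log2 fold change of *Pnliprp2* at day 7 (0.0837) and at day 14 (0.18), of *Pla2g1b* at day 14 (0.19) and of *Pnliprp1* between day 14 and day 7 (-0.0295). Total counts without secreted acinar genes reversed the day 14 values of *Pnliprp2* (0.00601, adjusted p = 0.985) and *Pla2g1b* (0.0217, adjusted p = 0.926). The cause was not tested, beyond the shift of the median gene that the scaling itself makes. Day 14 ratios to *Pnlip* reversed with medians for *Pnliprp1* (-0.0217) and *Clps* (-0.0106), and that of *Clps* ran from -0.0236 to 0.0421 without 1 mouse. All 15 ratio tests kept their side of the threshold under medians and without each mouse. The 6 genes' share was 66.0%, 43.4% and 55.2% of the counts outside the 20 most abundant genes at baseline, day 7 and day 14, where members among those 20 are in the numerator but not the denominator, and 29.7%, 28.8% and 30.2% of secreted acinar counts. Counts of members called for sex or its interaction were 0 under every alternative run, although *Pla2g1b* passed the adjusted p for sex, not the fold, with total count scaling. No paired analysis was possible because each mouse is a separate animal that belongs to 1 group only. Depth set no limit for these abundant genes.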

Other observations

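Transcripts of proteins that share the zymogen granule with the lipases were examined as a list. Of 8 tested, 1 was a DEG lower at day 7, beside 1.31% of all tested genes. This was *Sycn*, syncollin, a granule membrane protein, with a log2 fold change of -1.15 (SE 0.117, edgeR adjusted p = 1.77e-07). The most abundant of the 8, *Dmbt1*, a mucin-like glycoprotein, had -0.21 (adjusted p = 0.206), and the median of the 8 was -0.24.

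Transcription factors of the acinar cell were examined because they control enzyme genes. Of 10 tested, 0 were DEGs at day 7 in edgeR or DESeq2, and the median log2 fold change was -0.20. In edgeR 4 had an unadjusted p under 0.05, all lower. Over all 12195 tested genes, 1909 passed that mark as lower and 2016 as higher. An adjusted p of at most 0.05 was met by 3, all lower, beside 9.70% of tested genes in that direction. These 3, named after their values were seen, were *Rbpjl*, a subunit of PTF1 (-0.36, SE 0.0878, adjusted p = 0.00490), *Gata4* (-0.34, SE 0.0860, adjusted p = 0.00556) and *Bhlha15*, which encodes MIST1 (-0.29, SE 0.0767, adjusted p = 0.00940). *Xbp1*, the most abundant of the list, had -0.12 (adjusted p = 0.323), *Ptf1a* had -0.18 (adjusted p = 0.374) and *Nr5a2* had 0.02 (adjusted p = 0.930).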
